A study of Rattus norvegicus with 5 samples.

Results

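Ribosomal protein genes and genes for subunits of oxidative phosphorylation were followed through RNA sequencing comparisons of rat lung under acute hypobaric hypoxia. Members were all rows of the authors' deposited tables whose symbol began with Rpl or Rps and a digit, with Nduf, Uqcr or Atp5, or with Cox and a digit from 4 to 8. The Rps6k kinases and Cox6a2, a subunit isoform of heart and skeletal muscle, were not counted as members. This gave 94 rows at 36 loci with 35 symbols, out of 4452 rows at 1823 loci in 9 distinct tables. Ribosomal proteins made up 71 rows at 24 loci, and oxidative phosphorylation 23 rows at 12 loci. A row stands for 1 gene model, and rows with different start and end were kept apart.

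Lungs of outbred Sprague Dawley rats gave 5 libraries, 1 for each group. The normoxic male had not been screened for gasping, the time to the first gasp under acute hypobaric hypoxia. The other 4 libraries came from rats that were screened by that time, rested for a week and then held for 1 h in a decompression chamber set to 9144 m. They are called here the susceptible male (first gasp before 5 min), the normal male (between 15 and 20 min), the tolerant male (after 45 min) and the tolerant female (after 60 min). The word normal is the labels' name for the middle gasping class of exposed rats. Whether a library held RNA from 1 animal or from several pooled animals is not stated in the labels.

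Each table compares 1 library with 1 other and lists only gene models with an absolute fold of at least 2 and the authors' FDR-corrected p below 0.05. A gene model that a table leaves out has no value there and cannot be called unchanged. With 1 library in each group no difference has a replicate check, and the authors' p-values compare libraries and not conditions. The depth of the libraries is unknown because the tables hold no counts. The tolerant female was the only female, so sex cannot be told apart from tolerance. Of all rows, 75.5% were in the 4 tables that contain the normal male. Lung identity could not be checked from tables of listed genes: of 9 markers of alveolar type II cells, the surfactant-producing cells, 0 were listed in any table.

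The ribosome is built from a small subunit, which reads the messenger RNA, and a large subunit, which joins the amino acids. Mammalian ribosomal protein messenger RNAs typically begin with a run of pyrimidines, the terminal oligopyrimidine motif, through which mTORC1 and LARP1 adjust their translation to growth conditions and stress. Oxidative phosphorylation takes place in the inner mitochondrial membrane, where complexes I, III and IV pump protons with electrons that end on oxygen, and complex V makes ATP. Cells short of oxygen are known to exchange some complex IV subunits and to slow both respiration and protein synthesis.

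Most listed members were higher in the normal male than in whichever library it was compared with, but most genes of both families were not listed. Of fixed gene lists, 9 of 47 large subunit and 12 of 32 small subunit genes were in any table. For complexes I, IV and V it was 6 of 37, 5 of 17 and 2 of 20. These lists include Rplp1 and Cox6a2, which are not members. Of the 94 member rows, 89 (94.7%) were in the 4 authors' deposited tables that contain the normal male, and 78 of these 89 were higher in the normal male while 11 were lower. Over all rows of these 4 tables, the share higher in the normal male ran from 48.5% to 64.4%. By locus, 31 of 36 were higher in the normal male, 4 were lower (Rps19, Rpl41, Rpl12 and Ndufv3), and Rps2 was listed in both directions. The normal male was higher for 20 of 24 ribosomal protein loci and for 11 of 12 oxidative phosphorylation loci. No share by locus was computed over all genes. In bulk tissue, fewer cells of a type and less RNA per cell cannot be told apart.

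Against the normoxic male, 17 members were in the authors' deposited table and 14 of them were higher in the normal male, where 48.5% of all rows in that table were. The median of the members' log2 folds there was 1.26, against -1.03 over all rows. Only absolute folds of at least 2 are listed, so the sign of each median follows the share of rows that were higher. The -1.03 lies close to the listing limit and does not measure a typical change. Against the susceptible male, 26 of 30 listed members were higher in the normal male in the authors' deposited table, where 60.8% of all rows were. Members had a median log2 fold of 1.32 in that table and all rows one of 1.21. Against the tolerant male, the authors' deposited table had 19 of 21 listed members higher in the normal male, with 63.3% of all rows. The medians were 1.34 for members and 1.31 for all rows. Against the tolerant female, again 19 of 21 listed members were higher in the normal male in the authors' deposited table, with 64.4% of all rows, and the medians were 1.36 and 1.30. In direction the members differed most from their table in the comparison with normoxia, where most rows were lower in the normal male. These 4 tables share the normal male's library, so their counts are not independent of each other.

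Few members were listed where the normal male was absent. The table of the susceptible over the normoxic male listed 2 members, Rps2 and Rpl30, and both were higher in the susceptible male, where 40% of all rows in that authors' deposited table were. For the tolerant male over the normoxic male, 2 members were in the authors' deposited table, with Rps2 higher and Rpl27a lower in the tolerant male, and 46.6% of all rows were higher. Between the tolerant female and the susceptible male, Rps2 was the only member in the authors' deposited table, lower in the female, with 65.3% of all rows higher. The tables of the tolerant female over the normoxic male and of the tolerant male over the susceptible male held 0 members.

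**Figure D1:**
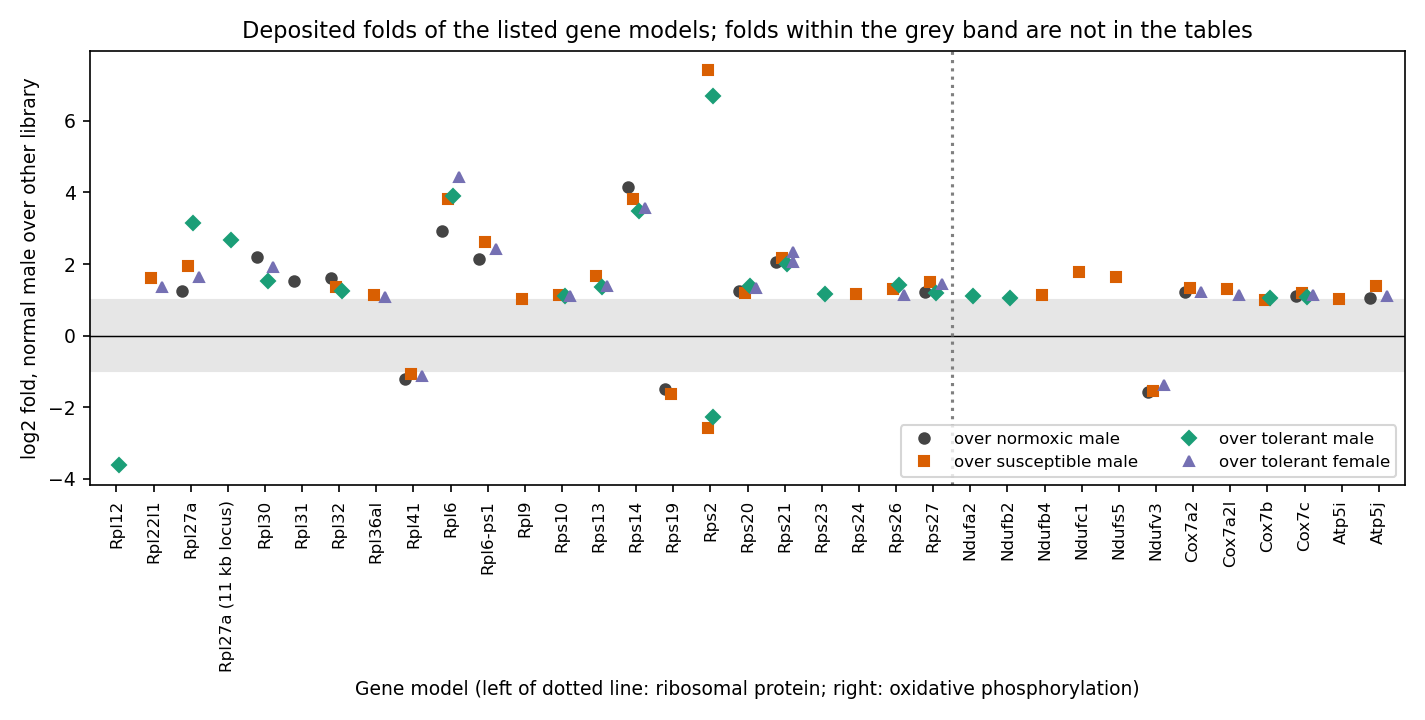
Each point is a deposited fold of 1 gene model, plotted as log2 of the normal male over the other library, with colour and shape for the other library and a column for each of 35 gene models. The grey band marks folds under 2, which the tables leave out, and most points lie above it, with Rpl12, Rpl41, Rps19, Ndufv3 and 2 of the 4 Rps2 points below.

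The windows around the RefSeq start sites were read for 30 of the 35 members, from the rat assembly GRCr8, which is not known to be the authors' build. The 4 members shown first were listed in the most tables, with ties taken by the largest fold. The other 4 were chosen after their values were seen, Cox7c as the oxidative phosphorylation gene in most tables and Rps19, Rpl41 and Ndufv3 for their opposite direction. Each window runs 5′ to 3′ along the gene's strand, 40 bases before the start and 20 from the start onward, and capitals mark the longest unbroken run of C and T within 20 bases on each side of the start.
Rps2 (chr10:14251808-14251867, plus strand): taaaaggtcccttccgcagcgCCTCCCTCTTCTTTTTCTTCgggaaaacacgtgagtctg
Rpl27a (chr1:172974533-172974592, plus strand): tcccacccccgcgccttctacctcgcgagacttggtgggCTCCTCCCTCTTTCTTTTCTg
Rps14 (chr18:56498220-56498279, plus strand): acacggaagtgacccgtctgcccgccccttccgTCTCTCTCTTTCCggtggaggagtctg
Rpl6 (chr12:41011671-41011730, minus strand): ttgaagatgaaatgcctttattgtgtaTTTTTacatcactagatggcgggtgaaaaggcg
Cox7c (chr2:18579151-18579210, minus strand): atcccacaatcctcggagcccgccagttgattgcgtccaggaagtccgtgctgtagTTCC
Rps19 (chr1:89608648-89608707, plus strand): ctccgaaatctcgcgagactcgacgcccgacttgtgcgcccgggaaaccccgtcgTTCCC
Rpl41 (chr7:1563478-1563537, minus strand): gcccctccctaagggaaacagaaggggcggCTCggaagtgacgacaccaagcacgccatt
Ndufv3 (chr20:9613746-9613805, plus strand): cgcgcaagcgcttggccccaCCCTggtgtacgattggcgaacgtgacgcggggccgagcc

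The marked run was 20 bases long in Rps2 and Rpl27a and 13 in Rps14, but 5 in Rpl6 and Rps19 and 3 in Rpl41. A run of 8 or more was present in 13 of 18 ribosomal protein windows (72.2%) and in 2 of 12 oxidative phosphorylation windows (16.7%), against 3342 of 21851 (15.3%) over all protein-coding genes of the table. Runs were sought on both sides of the start, and in Rps2 most of the run lies before it. The counts are therefore not counts of terminal oligopyrimidine motifs. The RefSeq start may differ from the start used in lung, and whether the Rpl6 window holds the start of Rpl6 was not checked. Within 300 bases, 250 before and 50 after the start, 3 motifs were searched on both strands. The GABPA motif CCGGAAGT, bound by a factor known for nuclear genes of respiration and translation, was in 4 of 30 member promoters (13.3%) and in 4.77% of all protein-coding promoters. All 4 were among the 18 ribosomal protein promoters (22.2%), with 0 among the 12 of oxidative phosphorylation. The YY1 motif AAGATGGC was also in 4 of 30 (13.3%), against 3.67%, and the NRF1 motif GCATGCGC in 1 of 30 (3.33%), against 3.11%. Rps14 held both the GABPA and the YY1 motif, Rpl27a, Rpl31 and Rpl41 the GABPA motif, and Atp5i, Atp5j and Ndufa2 the YY1 motif. The NRF1 motif was in Atp5i. A match describes these letters and is not evidence of binding.

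Levels in all 5 libraries could be linked for 8 gene models, by chaining folds through shared libraries, and are given relative to the normoxic male at 1. The folds are ratios that chain: of 177 loci listed in all 3 tables linking the same 3 libraries, 177 closed within 0.001 on the log2 scale. A level or fold reached only by chaining has no p-value. Gene models are linked only through listed folds of at least 2, most of them from comparisons with the normal male. A model listed in each of those comparisons differs at least 2-fold between the normal male and each other library by selection. That the normal male stands apart in linked models is therefore largely set in advance, also where fewer libraries are linked.

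Among the small subunit proteins, Rps14 had the largest fold over the normoxic male among all members. Rps14, a platform protein whose loss on 1 allele is linked to a human anaemia, lies on chromosome 18 from 56727602 to 56732431 in the authors' coordinates. Its chained level was 1.25 in the susceptible male, 17.7 in the normal male, 1.60 in the tolerant male and 1.49 in the tolerant female. The normal male stood apart, and the other 4 libraries lay within 1.60-fold of each other. The authors' deposited tables gave Rps14 as 17.7-fold higher in the normal male than in the normoxic, 14.1-fold than in the susceptible, 11.1-fold than in the tolerant male and 11.9-fold than in the tolerant female, each with a corrected p listed as 0.

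Rps20 and Rps27 were also highest in the normal male, at smaller folds. Chained levels of Rps20, a protein of the small subunit's head, were 1.05 in the susceptible male, 2.37 in the normal male, 0.911 in the tolerant male and 0.937 in the tolerant female. Those of Rps27, which carries a zinc finger, were 0.822 in the susceptible male, 2.33 in the normal male, 1.03 in the tolerant male and 0.864 in the tolerant female. In both genes the normal male was the highest library, and the other 4 were close together, within 1.15-fold for Rps20 and 1.26-fold for Rps27. The authors' deposited tables gave Rps20 in the normal male as 2.37-fold over the normoxic, 2.26-fold over the susceptible, 2.60-fold over the tolerant male and 2.53-fold over the tolerant female. For Rps27 the folds in the authors' deposited tables were 2.33 over the normoxic, 2.84 over the susceptible, 2.26 over the tolerant male and 2.70 over the tolerant female.

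Rps21 was also in all 4 tables, at a locus of 1023 bp on chromosome 3. The authors' deposited tables gave it as 4.15-fold higher in the normal male than in the normoxic, 4.52-fold than in the susceptible and 3.99-fold than in the tolerant male. Against the tolerant female the authors' deposited table had 2 rows at that locus, 4.15-fold (corrected p listed as 0) and 5.03-fold (corrected p 0.0450). Both rows were higher in the normal male, and which of them matches the rows of the other tables is not given.

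Rps13, Rps26 and Rps10 were listed against the 3 other exposed rats and were not in the table against normoxia. Rps13, which helps join the subunits, was 3.19-fold higher in the normal than in the susceptible male, 2.57-fold than in the tolerant male and 2.59-fold than in the tolerant female, per the authors' deposited tables. Rps26, at the channel where messenger RNA leaves, was 2.48-fold higher in the normal than in the susceptible male, 2.66-fold than in the tolerant male and 2.20-fold than in the tolerant female, per the authors' deposited tables. Rps10 lay between 2.15-fold and 2.21-fold in the same 3 authors' deposited tables. Rps24 (2.22-fold over the susceptible male) and Rps23 (2.25-fold over the tolerant male), a protein next to the decoding site, were each in 1 of the authors' deposited tables. All 5 genes were higher in the normal male in each table that listed them.

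**Figure D2:**
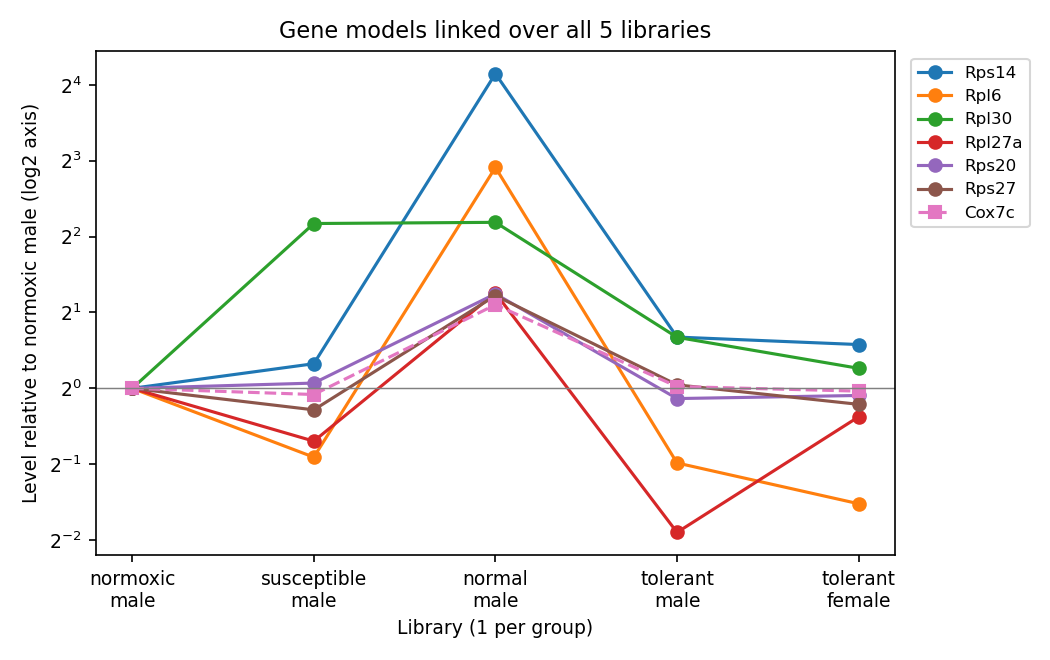
Levels of 7 of the 8 gene models that could be linked over all 5 libraries, on a log2 axis relative to the normoxic male, with 1 point for each library and a dashed line for Cox7c. The normal male is the highest library in each line, at 17.7 for Rps14 and 2.15 for Cox7c, and Rpl30 is nearly as high in the susceptible male at 4.51. Linking mostly through listed folds of the normal male largely sets in advance that this library stands apart.

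Of the large subunit, Rpl6 differed most. Rpl6, a protein on the outer face of the large subunit, lies on chromosome 12 from 36483874 to 36487420. Its chained level was 0.533 in the susceptible male, 7.52 in the normal male, 0.506 in the tolerant male and 0.349 in the tolerant female. The normal male was highest, and the other 3 exposed libraries were all below the normoxic male. None of these 3 decreases was listed by the authors, though that of the tolerant female was 2.87-fold. The authors' deposited tables gave Rpl6 as 7.52-fold higher in the normal male than in the normoxic, 14.1-fold than in the susceptible, 14.9-fold than in the tolerant male and 21.6-fold than in the tolerant female, each with a corrected p listed as 0. Rpl6-ps1, whose name marks it as a pseudogene copy of Rpl6 and whose locus spans 362 bp on chromosome 6, had the same direction. It was 4.42-fold higher in the normal than in the normoxic male, 6.18-fold than in the susceptible male and 5.34-fold than in the tolerant female, per the authors' deposited tables. The sources used here do not say how reads were divided between near-identical copies, so values of ribosomal protein genes, which have many processed copies, are uncertain.

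Rpl27a was listed in 5 tables and had different directions in the normal and the tolerant male. Its locus of 3019 bp lies on chromosome 1 from 167115389 to 167118407. The chained level of Rpl27a was 0.617 in the susceptible male, 2.39 in the normal male, 0.268 in the tolerant male and 0.771 in the tolerant female. Against the normoxic male, the authors' deposited tables gave Rpl27a as 2.39-fold higher in the normal male (corrected p 4.12e-10) and 3.73-fold lower in the tolerant male (corrected p 4.97e-07). The normal male was also 8.91-fold over the tolerant male, 3.87-fold over the susceptible male and 3.10-fold over the tolerant female, per the authors' deposited tables. A separate Rpl27a row of the authors' deposited tables, at 11083 bp from 167333128 to 167344210, was 6.35-fold higher in the normal than in the tolerant male (corrected p 0.0159).

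Among the 8 gene models linked over all 5 libraries, Rpl30 was the one with a second library nearly as high as the normal male. Rpl30, which in yeast also binds its own transcript, had a chained level of 4.51 in the susceptible male, 4.55 in the normal male, 1.59 in the tolerant male and 1.20 in the tolerant female. The susceptible and the normal male were nearly level, and the normoxic male and both tolerant rats were lower. The authors' deposited tables listed Rpl30 as 4.55-fold higher in the normal and 4.51-fold higher in the susceptible than in the normoxic male. In the authors' deposited tables its normal male was 2.86-fold over the tolerant male and 3.79-fold over the tolerant female.

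Rpl32, Rpl22l1 and Rpl36al were higher in the normal male in each table that listed them. Rpl32 was 3.05-fold higher in the normal than in the normoxic male, 2.54-fold than in the susceptible and 2.36-fold than in the tolerant male in the authors' deposited tables. Rpl22l1, a paralogue of Rpl22, was 3.03-fold higher in the normal than in the susceptible male and 2.57-fold than in the tolerant female, per the authors' deposited tables. For Rpl36al, an expressed copy related to Rpl36a, the values in the authors' deposited tables were 2.21-fold over the susceptible male and 2.12-fold over the tolerant female. Rpl31 (2.88-fold over the normoxic male) and Rpl9 (2.02-fold over the susceptible male) were each in 1 of the authors' deposited tables. The authors' row named Rpl9 is on chromosome 1, whereas RefSeq places Rpl9 on chromosome 14.

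Rps19, Rpl41 and Rpl12 were lower in the normal male. Rps19, the gene most often mutated in human Diamond-Blackfan anaemia, was 2.81-fold lower in the normal than in the normoxic male (corrected p 2.97e-10) and 3.11-fold lower than in the susceptible male (corrected p 4.00e-13) in the authors' deposited tables. Rpl41, which encodes one of the shortest known proteins, was 2.32-fold lower in the normal than in the normoxic male, 2.10-fold than in the susceptible male and 2.18-fold than in the tolerant female, per the authors' deposited tables. Relative to the normoxic male at 1, the chained level of Rpl41 was 0.904 in the susceptible male, 0.430 in the normal male and 0.937 in the tolerant female, so the normal male alone was low among these 4 libraries. Rpl12, a protein at the base of the ribosomal stalk, was 12.4-fold lower in the normal than in the tolerant male (corrected p 0.0319) in the authors' deposited table. That Rpl12 row is on chromosome 8 with a span of 516 bp, whereas RefSeq places Rpl12 on chromosome 3.

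Rps2, a protein near the entry of the messenger RNA channel, was the member with the most rows, 7 in 5 tables, all at chromosome 10 from 13975350 to 13977199. Against the normoxic male, the authors' deposited tables gave Rps2 as 13.0-fold higher in the susceptible and 10.5-fold higher in the tolerant male, and the tolerant female was 6.46-fold lower than the susceptible male, each with a corrected p listed as 0. Between the normal and the susceptible male the authors' deposited table had 2 Rps2 rows, one 170-fold higher in the normal male (corrected p 0.000168) and one 6.01-fold lower (corrected p listed as 0). Between the tolerant and the normal male the authors' deposited table again had 2 Rps2 rows, one 103-fold higher in the normal male (corrected p 0.000238) and one 4.86-fold lower (corrected p listed as 0). The rows therefore held at least 2 gene models at the same coordinates with opposite directions. Folds of 6.01 and 4.86 close the loop through the normoxic, susceptible, normal and tolerant males within 0.001 on the log2 scale, and no other pairing of these rows does. For that gene model the chained level of the normal male was 2.17, between 1 in the normoxic male and 10.5 in the tolerant male. That chained value is past the 2-fold limit, yet the authors' deposited table of the normal over the normoxic male has no Rps2 row. Whether the 170-fold and the 103-fold rows belong to the same gene model is not given.

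In oxidative phosphorylation, Cox7c was listed in the most tables. Cox7c, a small subunit of complex IV on chromosome 2 from 15254040 to 15256083, had a chained level of 0.945 in the susceptible male, 2.15 in the normal male, 1.02 in the tolerant male and 0.975 in the tolerant female. The other 4 libraries lay within 1.08-fold of each other, and the normal male stood above them. The authors' deposited tables gave its normal male as 2.15-fold over the normoxic (corrected p 7.01e-05), 2.27-fold over the susceptible (corrected p 1.76e-05), 2.11-fold over the tolerant male (corrected p 0.000124) and 2.20-fold over the tolerant female (corrected p 6.08e-05).

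All 4 listed complex IV genes were higher in the normal male in each table that listed them. Cox7a2, the widely expressed isoform of subunit VIIa, was 2.31-fold higher in the normal than in the normoxic male, 2.51-fold than in the susceptible male and 2.33-fold than in the tolerant female, per the authors' deposited tables. Cox7a2l, which joins complexes III and IV into supercomplexes, was 2.45-fold higher in the normal than in the susceptible male and 2.18-fold than in the tolerant female, per the authors' deposited tables. Cox7b lay just at the limit of the authors' deposited tables, 2.00-fold over the susceptible and 2.08-fold over the tolerant male. The listed complex IV members were all of subunit VII, and no Cox4, Cox5, Cox6 or Cox8 gene was in any table under the rule.

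Complex V had 2 listed genes. Atp5j, the coupling factor in the stalk of ATP synthase that RefSeq now calls Atp5pf, had a chained level of 0.783 in the susceptible male, 2.05 in the normal male and 0.946 in the tolerant female. The authors' deposited tables gave Atp5j in the normal male as 2.05-fold over the normoxic male (corrected p 0.00108), 2.62-fold over the susceptible male (corrected p 8.35e-06) and 2.17-fold over the tolerant female (corrected p 0.000578). Atp5i, a membrane subunit that RefSeq now calls Atp5me, was in the authors' deposited table against the susceptible male alone, 2.01-fold higher in the normal male.

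Complex I had 6 listed genes, and Ndufv3 went against the rest. Ndufc1 (3.42-fold), Ndufs5 (3.09-fold) and Ndufb4 (2.18-fold), accessory subunits of complex I, were higher in the normal than in the susceptible male in the authors' deposited table, with corrected p of 0.0490, 0.0367 and 0.0335. Ndufa2 (2.16-fold) and Ndufb2 (2.05-fold), also accessory subunits, were higher in the normal than in the tolerant male in the authors' deposited table, with corrected p of 0.0499 and 0.0294. These 5 were in 1 table each, and their corrected p lay between 0.0294 and 0.0499. Ndufv3, an accessory subunit of the module that takes electrons from NADH, was 2.97-fold lower in the normal than in the normoxic male (corrected p 0.00374), 2.92-fold lower than in the susceptible male and 2.59-fold lower than in the tolerant female, per the authors' deposited tables. With the normoxic male at 1, the chained level of Ndufv3 was 0.981 in the susceptible male, 0.336 in the normal male and 0.871 in the tolerant female, and the normal male was the low one among these 4 libraries.

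Loci of the members were short. The median span from start to end in the authors' coordinates was 3051.5 bp over the 36 member loci, from 362 to 27169 bp, and 27 of them (75%) spanned under 5 kb. Ribosomal protein loci had a median of 2227.5 bp and oxidative phosphorylation loci one of 6133.5 bp. The other 1325 named loci in the tables had a median of 20281 bp, and 15.3% of them spanned under 5 kb.

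Direction moved with span among the other named genes. Over the normal male's 4 tables among the authors' deposited tables, 249 of 352 other named rows of 1 to 5 kb (70.7%) were higher in the normal male, 371 of 723 of 5 to 20 kb (51.3%), and 382 of 1059 of 20 kb or more (36.1%). Among rows under 1 kb it was 19 of 24 (79.2%). Of member rows, those of 1 to 5 kb were higher in 63 of 65 (96.9%) and those of 5 to 20 kb in 9 of 14 (64.3%). Those of 20 kb or more were higher in 2 of 2, and those under 1 kb in 4 of 8 (50%). Rows pooled in this way count many loci more than once and share the normal male's library, so they are not independent. The 8 shortest rows were 3 each of Rpl41 and Rpl6-ps1 and 1 each of Rpl9 and Rpl12. The median span of other named rows was 13238 bp where the normal male was higher and 27901 bp where it was lower. For member rows the order was the other way. Their median was 2586 bp in the 78 rows higher in the normal male and 1850 bp in the 11 lower rows. In the authors' deposited tables without the normal male, the share of other named rows of 1 to 5 kb that were higher in the first library was 54.5% (susceptible male), 28.6% (tolerant male) and 50% (tolerant female) over the normoxic male. Over the susceptible male it was 31.8% with the tolerant male and 36.8% with the female. At 20 kb or more these shares were 47.4%, 58.8% and 55.3% over the normoxic male and 63.3% and 33.3% over the susceptible male. The part of span in the members' direction was not tested.

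**Figure D3:**
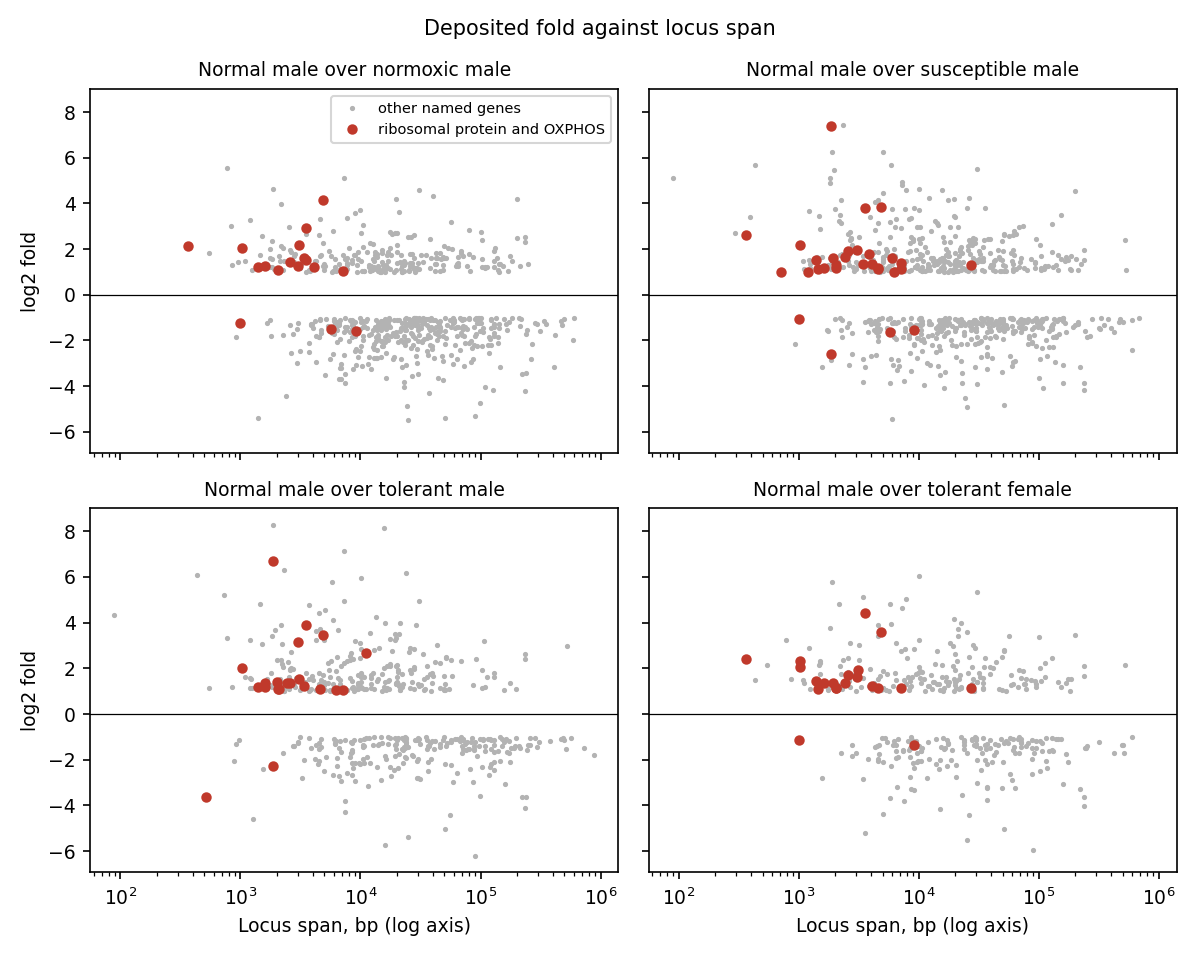
Log2 of the normal male over the other library against locus span on a log axis, 1 panel for each of the 4 tables with the normal male, with red points for ribosomal protein and oxidative phosphorylation (OXPHOS) rows and grey for other named genes. Red points gather at short spans, around the median of 3051.5 bp, and mostly above 0, while grey points thin out below 0 at short spans.

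**Figure D4:**
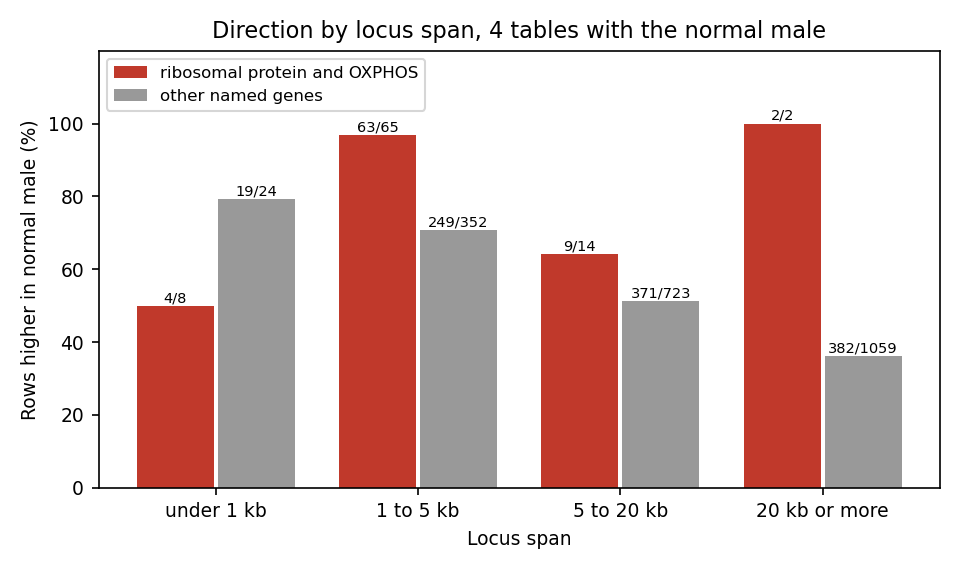
Bars give the percentage of listed rows that were higher in the normal male, pooled over its 4 tables, in classes of locus span, with counts above the bars. The same locus can be counted more than once. Other named genes go from 79.2% under 1 kb to 36.1% at 20 kb or more, and member rows of 1 to 5 kb stand at 96.9%, while the member classes under 1 kb and at 20 kb or more hold 8 and 2 rows.

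Some housekeeping genes outside the members were listed as well. From a list of 31 such genes, chosen for high expression and short transcripts, 7 were listed in any table, and each row with the normal male was higher in it: 4 of 4 against the normoxic, 6 of 6 against the susceptible, 1 of 1 against the tolerant male and 3 of 3 against the tolerant female. Over all rows of these tables the shares were 48.5%, 60.8%, 63.3% and 64.4%. Actg1, a cytoplasmic actin, supplied 2 of the 4 rows against the normoxic male, at 2.48-fold and 3.47-fold in the authors' deposited table. It was about as high over the normoxic male in other libraries, 2.72-fold in the susceptible male and 2.51-fold and 3.60-fold in the female, per the authors' deposited tables. Hint1, a small nucleotide hydrolase, was 2.06-fold higher in the normal than in the normoxic male, 2.40-fold than in the susceptible, 2.08-fold than in the tolerant male and 2.35-fold than in the tolerant female, per the authors' deposited tables. Ppia, the chaperone cyclophilin A, was 2.17-fold higher in the normal than in the susceptible male in the authors' deposited table. Rplp1, an acidic stalk protein of the large subunit outside the naming rule, was 2.34-fold higher in the normal than in the normoxic male, 2.18-fold than in the susceptible and 2.27-fold than in the tolerant male in the authors' deposited tables.

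Some predicted symbols in the tables now carry ribosomal protein or oxidative phosphorylation names in RefSeq. Of 472 predicted symbols, 249 matched a RefSeq entry and 20 of these had such a name, at 20 loci with 64 rows, of which 18 loci spanned under 1 kb and 8 were pseudogenes. Among the authors' deposited tables, the 4 of the normal male had 46 of 51 such rows higher in it. Of all non-member rows under 1 kb in those tables, predicted loci included, 578 of 611 (94.6%) were higher in it. The largest was LOC100359503, the pseudogene Rps28-ps3, 50.4-fold higher in the normal than in the normoxic male, 65.0-fold than in the susceptible, 65.9-fold than in the tolerant male and 57.9-fold than in the tolerant female, per the authors' deposited tables. The authors' corrected p for these folds lay between 0.0280 and 0.0408. LOC685322, now Uqcr10 of complex III, was 2.58-fold over the normoxic, 2.92-fold over the susceptible and 2.99-fold over the tolerant male in the authors' deposited tables. RGD1564883, the pseudogene Rpl12a-ps1, went the other way, with the tolerant male 32.3-fold over the normal, 10.1-fold over the normoxic and 52.0-fold over the susceptible male in the authors' deposited tables. LOC100362640, now Rps4x, had 2 rows in each table with the normal male, all higher in it, from 2.38-fold over the tolerant female to 16.8-fold over the normoxic male in the authors' deposited tables.

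Genes that build or steer ribosomes and mitochondria were sparsely listed. Of 20 ribosome biogenesis genes 2 were listed, Myc, a transcription factor that drives ribosome production, and Rrn3, an initiation factor of RNA polymerase I. Myc was 2.55-fold higher in the normal than in the normoxic male, 2.35-fold than in the susceptible and 2.38-fold than in the tolerant male in the authors' deposited tables, and Rrn3 was 2.06-fold over the susceptible male. Mitochondrial ribosome genes in the authors' deposited tables were Mrpl44 (3.96-fold), Mrpl16 (3.30-fold) and Mrps31 (2.88-fold), higher in the normal than in the susceptible male, and Mrpl54 (2.13-fold) and Mrps31 (2.67-fold), higher than in the tolerant male. Against the tolerant female, Mrps31 was 2.72-fold higher in the normal male in the authors' deposited table. The list of 12 elongation genes also held Btf3, which is not itself an elongation factor. Btf3 was 2.05-fold higher in the normal than in the susceptible male in the authors' deposited table. Eef1a2, an elongation factor of muscle and nerve, was 8.36-fold lower in the normal and 6.93-fold lower in the susceptible than in the normoxic male in the authors' deposited tables.

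Among initiation genes, Eif2ak3, the kinase PERK of the unfolded protein response, was 2.16-fold higher in the normal male than in the susceptible male and 2.51-fold than in the tolerant female, per the authors' deposited tables. Eif2s1 was 2.12-fold over the susceptible male in the authors' deposited table, and Eif5 was 2.07-fold higher in the tolerant than in the susceptible male. Of 18 genes of translation signalling, Ddit4, an inhibitor of mTORC1, was the one listed, 2.01-fold lower in the tolerant than in the susceptible male in the authors' deposited table. From the 10 genes of mitochondrial biogenesis, the 4 of complex II and the 9 of complex III, 0 were listed in any table under their own names. Bnip3, a HIF target that promotes removal of mitochondria, was higher than in the normoxic male in the 4 authors' deposited tables against it, with folds of 2.72 for the susceptible, 3.62 for the normal and 2.59 for the tolerant male, and 2.38 in the female. Higd1a (2.50-fold), which binds complex IV, and Pdk1 (2.25-fold), which keeps pyruvate from the mitochondrion, were higher in the normal than in the normoxic male in the authors' deposited table.

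Markers of other cell types differed between the same libraries. Of 35 genes of heart muscle, 16 were in the authors' deposited table of the normal over the normoxic male, all lower in the normal male, 2 were higher in it than in the susceptible male and 8 than in the tolerant male, and 0 were listed against the tolerant female. Cox6a2, the muscle isoform outside the rule, was 37.3-fold higher in the normal than in the tolerant male (corrected p 0.0430) in the authors' deposited table. Of 12 B cell genes, 7 were listed against the susceptible male, 3 against the tolerant male and 4 against the tolerant female. All of these were higher in the normal male, per the authors' deposited tables, and the 1 listed against the normoxic male was lower. Of 10 genes of club and secretory cells, the airway cells that make secretoglobins, 3 of 4 listed were higher in the normal than in the normoxic male, 3 of 3 than in the susceptible male, 4 of 4 than in the tolerant male and 2 of 3 than in the tolerant female, per the authors' deposited tables. Against the normoxic male, the authors' deposited table gave Scgb1a1 as 2.14-fold, Scgb3a2 as 2.25-fold and Scgb3a1 as 3.34-fold higher in the normal male, and Clca3 as 11.6-fold lower. Of 10 neutrophil genes, rows higher in the normal male were 2 of 3 against the normoxic, 0 of 2 against the susceptible and 2 of 3 against the tolerant male and 4 of 4 against the tolerant female. For red cells, in the same order, they were 1 of 3, 0 of 2, 1 of 2 and 2 of 2 rows. Endothelial genes had 0 of 3 rows higher against the normoxic and 0 of 1 against the tolerant male, and genes of smooth muscle and fibroblasts had 1 of 4, 1 of 1 and 1 of 3 against the normoxic, susceptible and tolerant males. Over all rows, the shares higher in the normal male were 48.5% against the normoxic and 60.8% against the susceptible male. They were 63.3% against the tolerant male and 64.4% against the tolerant female. Levels of these markers in each library are not in the tables, and their part in the members' folds was not tested.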

How the data were processed

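Lung RNA was taken up in TriReagent and sequenced as Illumina TruSeq libraries, per the labels' protocols. The authors deposited 11 tables, of which 2 were identical copies, which left 9. The fold they hold is a signed ratio of proportions, used here as a score, per the file headers: it is positive where the first library is higher and otherwise minus the inverse ratio. The FDR-corrected p-value was deposited by the authors, and only rows with an absolute fold of at least 2 and a p-value below 0.05 were listed. The aligner, the counting, the test and the genome build were not stated in the sources used here. Chromosome numbers were set by the symbols on each record, and 1527 of 1567 pairs of symbol and chromosome matched the RefSeq GRCr8 table.

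Folds were turned into log2 values, chained through shared libraries and counted with Python 3.11.15 and pandas 2.3.3, in scripts tested on simulated data. No test was run, since each group is 1 library. One member is not reported here but stays in all counts. The other members in 2 or more tables are given in full, with the 4 largest folds in each direction for each table and family, and other lists by counts and up to 3 genes. Members and lists were chosen with earlier results of these data known. Alternatives were thresholds of 0.01 for p and 3 for fold, 1 row for each symbol, RefSeq chromosomes, predicted loci added, muscle isoforms or infinite folds left out and, chosen after seeing the data, the normal male's tables left out and folds chained.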

Additional observations from a re-analysis of the deposited data

Results flagged for a closer look

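Rpl27a had opposite directions against the same reference. The normal male was 2.39-fold over the normoxic male in the authors' deposited table (value 2.39), while the tolerant male had a deposited fold of -3.73 over the normoxic male, which means that it was 3.73-fold lower. Each value rests on 1 library, and the difference between the 2 folds was not tested.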

How the results depend on the processing

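Of 186 values recomputed for 26 results under 8 alternatives, 152 stayed within 1.5 times the count or close to the median reported, 34 moved and 0 reversed. With a fold of at least 3, rows fell from 94 to 40, loci to 16 and loci in 2 or more tables to 8. The members then listed were 6 against the normoxic male (6 higher in the normal male, median log2 fold 2.17), 13 against the susceptible male (11 higher, 1.91), 8 against the tolerant male (6 higher, 2.91) and 8 against the tolerant female (8 higher, 2.19). This alternative removes the smaller folds by construction. With predicted loci that RefSeq names added, there were 158 rows at 56 loci, 41 of them in 2 or more tables, with a median span of 1732 bp. Listed members were then 30 against the normoxic male (24 higher in the normal male, median span 1829 bp), 36 against the tolerant male (33 higher) and 32 against the tolerant female (29 higher). In tables without the normal male, 5 members were listed for the susceptible over the normoxic male (2 higher), 6 for the tolerant over the normoxic male (2 higher) and 2 for the tolerant female over the susceptible male (1 higher). Both tables that held 0 members then had some, 3 for the tolerant female over the normoxic male (0 higher) and 2 for the tolerant over the susceptible male (1 higher). With the 4 tables of the normal male left out, chosen after seeing the data, 5 rows at 3 loci were left, 1 locus of them in 2 or more tables: the pattern described rests on that library. Restricting p to 0.01, counting 1 row for each symbol or requiring the RefSeq chromosome moved none of the 26 results past these bounds. Nor did leaving out Cox7a1 and Cox8b (neither was listed) or requiring finite folds (0 member rows lacked one), which changed no row. Their 26 values each, among the 152 that stayed, were therefore the same by construction.

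No paired analysis was possible because each group is 1 library and no test was run. The tables hold no counts, so no interval can be given for any fold, those close to the limit of 2 included. Genes with near-identical copies are uncertain.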

Other observations

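Chaining gave 85 folds of members between libraries whose pair is in no table or whose table does not list the gene, and 7 of them were 2-fold or more. The Rps2 level of 2.17 in the normal male, which needs rows to be paired first, is not among the 85. None of these folds has a p-value. Several of those past 2-fold are between libraries that the authors did compare. They did not list the gene there, so these differences were not called. Against the susceptible male, Rpl30 was 2.83-fold lower in the tolerant male and 3.75-fold lower in the female. Rpl27a was 2.30-fold lower in the tolerant than in the susceptible male and 2.87-fold higher in the tolerant female than in the tolerant male, a pair that no table compares. The tolerant female's Rpl6 was 2.87-fold below that of the normoxic male. For Rps2 the tolerant female was 2.02-fold over the normoxic male and 5.22-fold below the tolerant male, if the rows chained belong to the same gene model, which the tables do not show.

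Rpl41 and Rps26 lie close together on chromosome 7 in the authors' coordinates, from 1839972 to 1840963 and from 1918772 to 1920795. In the authors' deposited tables Rpl41 was 2.10-fold lower and Rps26 2.48-fold higher in the normal than in the susceptible male, and against the tolerant female Rpl41 was 2.18-fold lower and Rps26 2.20-fold higher in the normal male. This pair was chosen after its values were seen.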
